A study of Mus musculus with 4 samples.

Results

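MHC class II antigen presentation was followed in osteoclast precursor cells through 9 genes: H2-Aa, H2-Ab1, H2-Eb1, Cd74, Ciita, H2-DMa, H2-DMb1, H2-Oa and H2-Ob. They were taken by exact match of the symbol among 53801 gene IDs, each symbol matched 1 ID, and all 9 passed the filter on low counts. RNA was sequenced from osteoclast precursor cells, the myeloid cells that can become bone-resorbing osteoclasts, of wild-type C57BL/6 mice. The titles number precursor cells 1 and 2, called preparations 1 and 2 here, which were read as cells of 2 mice. Each was given PBS (phosphate-buffered saline, the control) or DKK1 at 200 ng/ml for 3 h. DKK1 (Dickkopf-1) is a secreted inhibitor of Wnt signalling. This gave 4 libraries, 1 for each treatment of each preparation, so no preparation was replicated. The labels used here do not say how the precursors were isolated.

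Class II molecules show peptides from engulfed proteins to CD4+ T cells. H2-Aa and H2-Ab1 encode the alpha and beta chains of the mouse molecule H2-A, and H2-Eb1 encodes the beta chain of H2-E. Cd74 is the invariant chain, which guides new class II molecules to endosomes and blocks their groove until H2-DM (H2-DMa with H2-DMb1) exchanges its last fragment for a peptide. H2-DO (H2-Oa with H2-Ob) restrains H2-DM and is best known from B cells, and Ciita is a coactivator that switches on class II genes. Macrophages make class II mainly when stimulated, for example by interferon-gamma, while B cells and dendritic cells make it constantly.

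On mm10 (GRCm38), the class II locus of chromosome 17 holds H2-Oa (34092340 to 34095234), H2-DMa (34119541 to 34139101), H2-DMb1 (34153072 to 34160230), H2-Ob (34238903 to 34254414) and H2-Ab1 (34257689 to 34269419), all on the plus strand. Next come H2-Aa (34282744 to 34287823, minus strand) and H2-Eb1 (34305867 to 34316674, plus strand). Ciita lies on chromosome 16 (10480059 to 10528418, plus strand). All 9 are protein-coding.

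Class II promoters are known for an X box, bound by the RFX complex, and a Y box, bound by NF-Y, which together recruit Ciita. Promoter windows from RefSeq (GRCm38.p6) were matched for H2-Aa, H2-Eb1, H2-DMa, H2-DMb1, H2-Oa and H2-Ob. The 250 bases before each start were searched on both strands for the X core GNAAC followed, after 20 to 35 bases, by the Y box ATTGG. The gap range was set after these windows had been seen, and the 2 motifs do not overlap. The module was found in 5 of the 6 genes with a window, and in 2.25% of all 32851 windows. The last 130 bases before the start are shown for these 5 genes, 5′ to 3′ on the gene's strand, because they hold the module. Capitals mark the X core and the Y box.
H2-Aa (chr17:34287824-34287953, minus strand): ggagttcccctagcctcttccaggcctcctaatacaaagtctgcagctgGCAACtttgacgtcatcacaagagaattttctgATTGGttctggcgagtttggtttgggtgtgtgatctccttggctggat
H2-Eb1 (chr17:34305737-34305866, plus strand): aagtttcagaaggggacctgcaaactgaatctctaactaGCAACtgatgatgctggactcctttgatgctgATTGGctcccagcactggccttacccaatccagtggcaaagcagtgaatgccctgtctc
H2-DMb1 (chr17:34153061-34153190, plus strand): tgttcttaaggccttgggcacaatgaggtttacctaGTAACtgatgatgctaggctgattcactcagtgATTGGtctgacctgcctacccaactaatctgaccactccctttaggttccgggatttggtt
H2-Oa (chr17:34092249-34092378, plus strand): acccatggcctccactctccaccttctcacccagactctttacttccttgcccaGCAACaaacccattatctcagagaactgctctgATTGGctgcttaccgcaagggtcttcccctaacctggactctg
H2-Ob (chr17:34238775-34238904, plus strand): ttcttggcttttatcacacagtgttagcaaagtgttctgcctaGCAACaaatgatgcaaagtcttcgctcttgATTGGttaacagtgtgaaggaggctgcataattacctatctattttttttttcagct

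The gap between X core and Y box was 28 bases in H2-Aa, H2-DMb1 and H2-Oa, 27 in H2-Eb1 and 25 in H2-Ob. The Y box began 43 bases (H2-Oa) to 61 bases (H2-DMb1) before the start. In H2-DMb1 the X core reads GTAAC, and in the other 4 GCAAC. Of the neighbouring class II genes, H2-Eb2 holds the module with a gap of 27 bases, and the window of H2-DMb2 holds ATTGG without it. The 2 windows of H2-DMa do not hold it. A match is a description of letters and not a bound site. ATTGG alone was in 33.8% of all windows, on either strand.

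**Figure D1:**
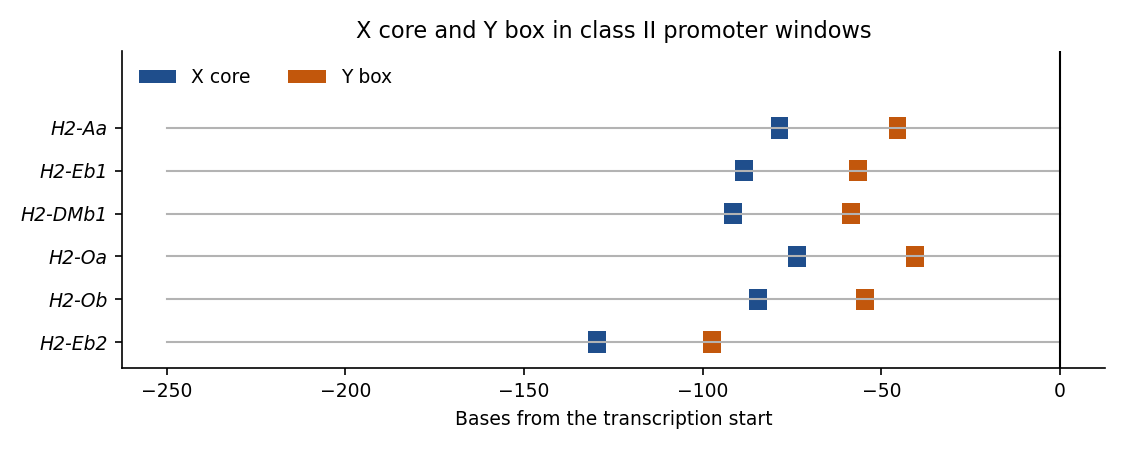
Position of the X core (blue) and the Y box (orange) in the 250 bases before the transcription start, for 5 class II genes of the study and the neighbouring H2-Eb2. The spacing between both elements is 25 to 28 bases in each, and H2-Eb2 has them farther upstream.

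The libraries held 41163663 to 53537927 counts, and 17462 genes were tested. Macrophage lineage genes were high in all 4 libraries: Lyz2 was at 14288 to 24909 CPM (counts scaled to library size, here by TMM), Adgre1 at 2109 to 2149, Csf1r (the M-CSF receptor) at 1969 to 2593 and Tnfrsf11a (RANK) at 197 to 204. The osteoclast lineage genes were mixed. Oscar, an osteoclast receptor, had 0 to 6 counts, and Ocstamp (0.46 to 1.52 CPM) and Dcstamp (0.345 to 1.7) were low. Acp5 was at 329 to 475 CPM, Mmp9 at 276 to 586, Nfatc1 at 40.2 to 50.8 and Ctsk at 4.11 to 29.1. In bulk RNA, fewer cells of a type and less RNA per cell cannot be told apart. The 9 class II genes took 0.133% of all counts with PBS and 0.109% with DKK1 in preparation 1, and 0.516% and 0.497% in preparation 2. Cd74 alone made up 55.3% to 61% of them.

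The preparations differed far more than the treatments. The chains H2-Aa, H2-Ab1 and H2-Eb1, the invariant chain and both H2-DM genes were higher in preparation 2, by 2.37-fold (H2-DMa) to 7.65-fold (H2-Aa). In the same cells Ciita was 3.15-fold and H2-Ob 10.6-fold lower. Thus 6 of 9 genes were higher and 2 lower at an edgeR adjusted p under 0.05, and H2-Oa did not pass. Of all tested genes 33.8% passed in this comparison, 17.9% higher and 15.9% lower. The median log2 difference (preparation 2 minus 1) was 1.86 over the 9 genes and -0.0034 over all genes. No preparation was repeated, so the test compares these 2 preparations, with a spread taken from how differently they responded to DKK1.

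H2-Aa was at 107 CPM (PBS) and 91.9 CPM (DKK1) in preparation 1 and at 767 and 753 CPM in preparation 2. The log2 difference was 2.94 (SE 0.065; edgeR adjusted p = 6.8e-06, n = 2 libraries per preparation). H2-Ab1, its partner chain, was at 169 and 141 CPM in preparation 1 and at 1039.7 and 1007 CPM in preparation 2, a log2 difference of 2.73 (SE 0.064; edgeR adjusted p = 7.3e-06). These 2 chains pair in the cell, and their ratio per exon length (RPKM, counts per kilobase of exon, scaled by the library's total count and not by TMM) was 0.430, 0.439, 0.499 and 0.505 in PBS 1, DKK1 1, PBS 2 and DKK1 2. By FPKM of the authors' deposited tables the ratio was 0.556, 0.568, 0.644 and 0.653. The ratio was somewhat higher in preparation 2, and the 95% intervals of the 2 log2 differences (2.77 to 3.10 and 2.57 to 2.89) overlap.

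H2-Eb1 rose less than H2-Ab1 from one preparation to the other. It was at 131 and 116 CPM in preparation 1 and at 448 and 446 CPM in preparation 2 (PBS, then DKK1), a log2 difference of 1.86 (SE 0.063; edgeR adjusted p = 1.8e-05). Its 95% interval, 1.70 to 2.01, lies below that of H2-Ab1, 2.57 to 2.89. Per exon length H2-Eb1 stood at 1.03 and 1.08 times H2-Ab1 in preparation 1 and at 0.569 and 0.586 times in preparation 2. Both genes share a stretch of 168 bases at 92.3% identity, too short to make them near-identical. C57BL/6 mice carry a defective gene for the E alpha chain, so the H2-Eb1 product has no partner there. That gene, H2-Ea-ps, was at 0 counts in all 4 libraries, which allows up to 0.0776 CPM (3 counts per library, counting error only).

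Cd74 was the most abundant of the 9 in every library, at 763 and 606 CPM in preparation 1 and at 3099 and 2909 CPM in preparation 2. The log2 difference was 2.14 (SE 0.062; edgeR adjusted p = 1.0e-05). Per exon length Cd74 stood at 6.92 and 6.55 times H2-Ab1 in preparation 1 and at 4.56 and 4.42 times in preparation 2. By FPKM of the authors' deposited tables it stood at 5.26 and 4.97 times and at 3.46 and 3.35 times, so the size depends on the length used. The excess of invariant chain over the A beta chain was therefore larger where both were low.

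Both peptide exchange genes were higher together with the chains, H2-DMa by less than each chain and H2-DMb1 by about as much as H2-Eb1. H2-DMa was at 23.9 and 21.5 CPM in preparation 1 and at 52.5 and 55 CPM in preparation 2, a log2 difference of 1.24 (SE 0.099; edgeR adjusted p = 0.00044). H2-DMb1 was at 21.5 and 18.6 CPM and at 80.4 and 84 CPM, a log2 difference of 2.04 (SE 0.10; edgeR adjusted p = 6.8e-05). In both genes the libraries of preparation 2 lay above those of preparation 1, but how many of all genes separate so was not counted. Against H2-Ab1 per length, H2-DMa went from 0.106 and 0.113 in preparation 1 to 0.0376 and 0.0407 in preparation 2. H2-DMb1 likewise went from 0.195 and 0.201 to 0.118 and 0.127. By FPKM of the authors' deposited tables, H2-DMa went from 0.141 and 0.152 to 0.0503 and 0.0545. H2-DMb1 went from 0.141 and 0.145 to 0.0853 and 0.0919.

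Values of both H2-DM genes are uncertain from the counting. H2-DMb1 has a near-identical copy, H2-DMb2 (95.8% identity over 1081 bases), which went the other way: 961 and 939 counts against 193 and 196, a log2 difference of -1.82 (edgeR adjusted p = 0.00055). H2-DMb2 held 44.2% (exact 95% interval 42.1% to 46.3%) and 47% (44.8% to 49.3%) of the counts of both copies in preparation 1. In preparation 2 it held 5.84% (5.07% to 6.7%) and 5.09% (4.42% to 5.84%). Summed, the 2 copies differed by 1.24 on the log2 scale (edgeR adjusted p = 0.00023). H2-DMa overlaps 360 exon bases of Brd2 on the other strand, and the labels used here do not say whether the libraries kept strand. Brd2 is so abundant that H2-DMa made up 10.8% of their sum, whose log2 difference was 0.51.

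Ciita, the coactivator of the family, was lower in preparation 2, where 6 of the other 8 genes were higher. It had 1042 and 940 counts in preparation 1 and 267 and 189 in preparation 2, which is 18.4 and 16.6 CPM against 6.91 and 4.35 CPM. The log2 difference was -1.65 (SE 0.18; edgeR adjusted p = 0.0014). Ciita shares 329 exon bases with Dexi on the opposite strand, and summed with it the difference was -1.32 (edgeR adjusted p = 0.0012). The counts are per gene, so they do not tell the alternative starts of Ciita apart.

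Both H2-DO genes had the opposite sign to the H2-DM genes. H2-Ob fell from 733 and 628 counts in preparation 1 to 60 and 33 in preparation 2, from 13 and 11.1 CPM to 1.55 and 0.759 CPM. Its log2 difference was -3.40 (SE 0.26; edgeR adjusted p = 0.00039), and the ratio of preparation 1 over 2 was 8.36 with PBS (95% counting interval 6.42 to 11.1) and 14.6 with DKK1 (10.3 to 21.4). H2-Oa had 168 and 187 counts in preparation 1 and 58 and 75 in preparation 2, or 2.97 and 3.3 CPM against 1.5 and 1.73 CPM. Its log2 difference of -0.96 (SE 0.29) did not pass (edgeR adjusted p = 0.051). It passed without a term for treatment (edgeR adjusted p = 0.035) and with upper-quartile scaling (0.044). Per length, H2-Ob stood at 0.189 and 0.186 times H2-DMb1 in preparation 1 and at 0.00603 and 0.00282 times in preparation 2. H2-Oa stood at 0.305 and 0.375 times H2-DMa in preparation 1 and at 0.0701 and 0.0768 times in preparation 2. These ratios depend on the length used: by FPKM of the authors' deposited tables, H2-Oa was at 0.154, 0.191, 0.0352 and 0.0389 times H2-DMa, and H2-Ob at 0.283 and 0.279 times H2-DMb1 in preparation 1.

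**Figure D2:**
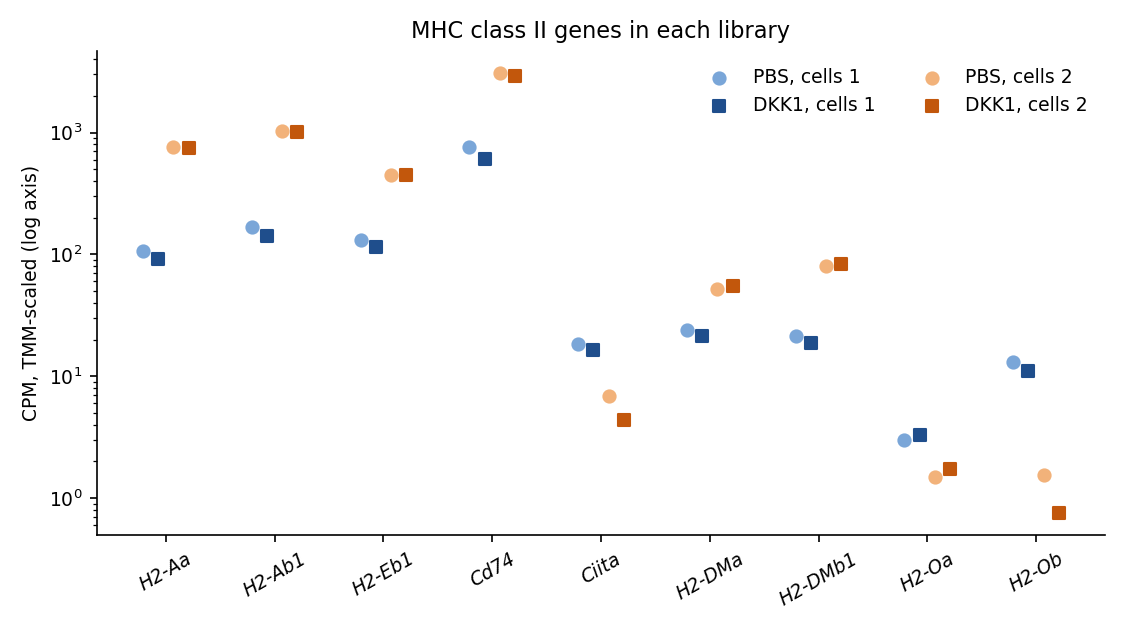
Level of each class II gene in each library, as TMM-scaled CPM on a log axis (circles PBS, squares DKK1; blue preparation 1, orange preparation 2). The orange points lie above the blue for the chains, Cd74 and H2-DM and below them for Ciita, H2-Oa and H2-Ob, while circle and square of one colour lie close together in most genes.

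**Figure D3:**
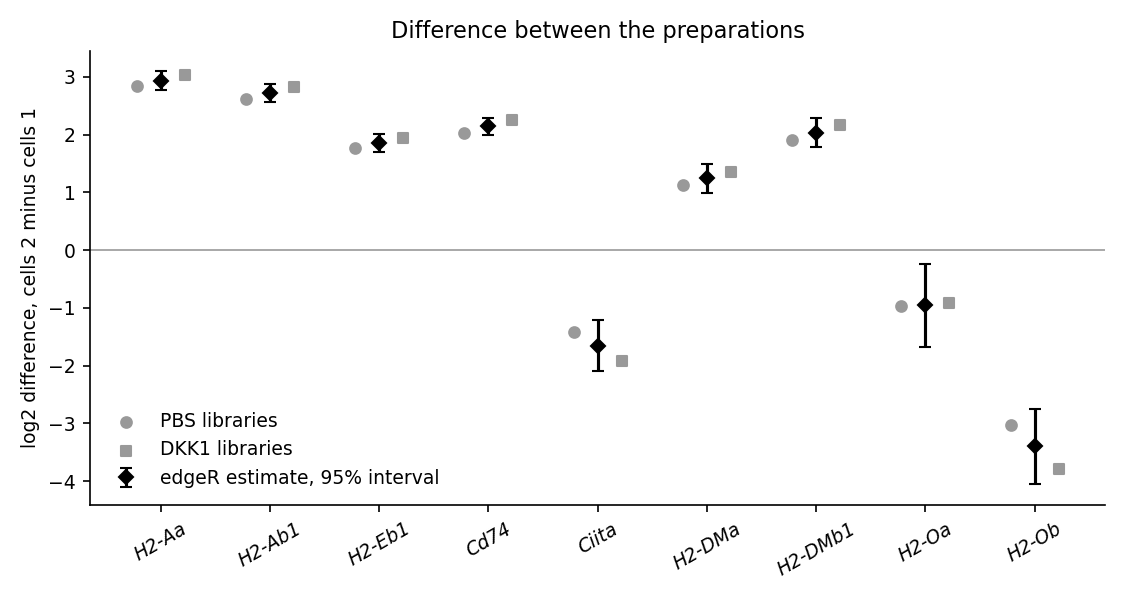
Log2 difference between preparation 2 and 1 for each class II gene, as the edgeR estimate with its 95% interval (diamonds) and within the PBS (circles) and DKK1 libraries (squares). Differences run from 2.94 for H2-Aa to -3.40 for H2-Ob.

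By RPKM the order in preparation 1 with PBS was Cd74 (482), H2-Eb1 (71.7), H2-Ab1 (69.6), H2-Aa (29.9), H2-DMb1 (13.6), H2-DMa (7.36), H2-Ob (2.56), H2-Oa (2.24) and Ciita (2.05). In preparation 2 with PBS it was Cd74 (1733), H2-Ab1 (380), H2-Eb1 (216), H2-Aa (190), H2-DMb1 (44.9), H2-DMa (14.3), H2-Oa (1), Ciita (0.68) and H2-Ob (0.271). H2-Ob was above H2-Oa with PBS (2.56 against 2.24) and below it with DKK1 (2.18 against 2.48) in preparation 1, and the lowest of the 9 in both libraries of preparation 2. With 1 library for each treatment of a preparation, neighbours such as H2-Eb1 and H2-Ab1, or H2-Oa and Ciita, in preparation 1 cannot be ordered beyond error. The FPKM of the authors' deposited tables put H2-DMa (13.9) beside H2-DMb1 (13.8) in PBS 1 and H2-Aa (347) above H2-Eb1 (321) in PBS 2.

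Genes that act with the class II family were read from lists. Between the preparations, 17.9% of all tested genes were higher and 15.9% lower. Of the other class II genes of the locus, 2 were tested and both were lower in preparation 2: H2-DMb2, above, and H2-Eb2 (260 and 259 counts against 58 and 57; log2 -1.71, edgeR adjusted p = 0.0064). H2-Pa and H2-Pb had 0 counts. Of 7 factors that bind class II promoters 2 were higher and 2 lower by edgeR (median log2 0.094). Rfxank, a subunit of the RFX complex, differed by 0.65 (adjusted p = 0.028), Nfyc of NF-Y by -0.32 (0.039), Nfya by 0.32 (0.19) and Creb1 by -0.042 (0.75). Rfx5 (log2 0.65, edgeR adjusted p = 0.028) and Rfxap (-0.49, 0.036) are named after their values were seen.

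Of 14 genes upstream of Ciita, 9 were higher and 1 lower in preparation 2 (median log2 0.58). Jak2, a kinase of the interferon-gamma receptor, differed by 0.54 (edgeR adjusted p = 0.00081). Spi1 (0.062, edgeR adjusted p = 0.3) and Jak1 (0.14, 0.084) did not pass. Chosen after their values were seen, Socs1, the inhibitor of interferon signalling, differed by 2.88 (edgeR adjusted p = 2.4e-05), Irf1 by 1.55 (0.0018) and the 1 lower gene, Bhlhe40, by -0.36 (0.041). Ciita was lower in the preparation in which Irf1 was higher.

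Of 10 genes for antigen processing and class II turnover 6 were higher and 1 lower in preparation 2 (median log2 0.36). Ctss, the protease that trims the invariant chain, differed by 2.12 (edgeR adjusted p = 2.1e-06), from 1314 and 1370.3 CPM to 5717 and 5921 CPM. Lgmn (0.77, edgeR adjusted p = 0.00015), Ctsb (0.47, 8.4e-05) and Ctsd (0.26, 0.00092) differed less. The 1 lower gene was Ctsl (-0.56, edgeR adjusted p = 0.0036), named after its value was seen. Of 6 costimulation genes 2 were higher (median 0.38), Cd274 (1.55, edgeR adjusted p = 1.4e-05) and Cd40 (1.14, 0.00019), while Icosl (0.012, 0.94) and Cd86 (0.30, 0.074) did not pass.

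Class I presentation was higher in the same preparation. Of 13 class I genes 11 were higher and 1 lower (median log2 1.44): H2-K1 differed by 1.93 (edgeR adjusted p = 3.7e-06), B2m by 1.28 (6.8e-06), H2-D1 by 1.04 (1.0e-05) and the chaperone Calr by -0.19 (0.0095). H2-Aa and H2-Ab1 had larger differences than each of these 4. Tap1, a class I gene named after its value was seen, differed by 2.64. That is less than H2-Aa and H2-Ab1 but more than Cd74 (2.14), H2-DMb1 (2.04), H2-Eb1 (1.86) and H2-DMa (1.24). Whether the class II and class I lists differ was not tested.

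The genes nearest in pattern to the mean of H2-Aa, H2-Ab1 and H2-Eb1 were ranked by Euclidean distance of log2 CPM centred over the 4 libraries, among 8716 named genes with a mean of at least 10 CPM over the 4 libraries. They were Il15 (distance 0.111), H2-K2 (0.143), Cyp4f18 (0.151), Selenom (0.175), Stat2 (0.243) and Enpp4 (0.245). Il15 had 192, 181, 719 and 846 counts and Stat2 had 5928, 6488, 24880 and 26727 in PBS 1, DKK1 1, PBS 2 and DKK1 2. With 4 libraries, likeness mainly means a similar difference between the preparations.

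Many markers of other cells also differed between the preparations, where 17.9% of all tested genes were higher and 15.9% lower. Of 16 B cell markers 14 were lower and 1 higher in preparation 2 by edgeR (median log2 -2.66). Their summed level was 424 and 316 CPM in preparation 1 and 191 in both libraries of preparation 2. Most of the sum in preparation 2 came from Blnk (83.8 and 88.6 CPM) and Cd22 (56.8 and 54.5 CPM). Cd79a, a signalling part of the B cell receptor complex, differed by -1.78 (edgeR adjusted p = 0.00027), Spib by -2.62 (0.00011) and Cd22 by 0.91 (0.00095), and Blnk (-0.0052, 0.96) did not pass. The defining B cell genes Ms4a1 and Pax5, named after their values were seen, differed by -2.69 and -3.90. None of the 16 markers was at 0 in all libraries. Of the class II genes, H2-Ob (-3.40), H2-DMb2 (-1.82), H2-Eb2 (-1.71) and Ciita (-1.65) were lower together with them, while Cd74 and the chains, which B cells also make, were higher. The part of B cells in these differences was not tested.

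Of 14 dendritic cell markers 7 were higher and 5 lower in preparation 2 (median log2 0.38), with summed levels of 513 and 558 CPM in preparation 1 and 1115 and 1174 CPM in preparation 2. Most of each sum was Bst2, which interferon also induces, at 355 and 404 CPM in preparation 1 and 933 and 992 CPM in preparation 2. Bst2 differed by 1.35 (edgeR adjusted p = 1.8e-05), Tcf4 by 0.49 (0.0099), Fscn1 by 0.45 (0.011) and Itgax by 0.41 (0.019). Named after their values were seen, Flt3 (-1.21), Clec10a (-1.53) and Siglech (-1.54) were among the 5 lower. Batf3 (2.05), Clec9a (1.12) and Ccr7 (1.04), likewise named after their values were seen, were among the 7 higher. Cd209a had 64 and 78 counts in preparation 1 and 0 and 0 in preparation 2. Of 12 monocyte and macrophage markers 7 were higher and 3 lower (median 0.32), with Cd68 at 0.63, Csf1r at 0.37, Lyz2 at -0.78 and Adgre1 at 0.020 (edgeR adjusted p = 0.66 for Adgre1). Ly6c2, at 2.84, is named after its value was seen. The part of these cells in the class II differences was not tested.

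The remaining marker lists gave the following counts of genes that passed edgeR's test in preparation 2 against 1. Neutrophil markers were higher in 8 of 8 (median log2 0.76) and plasma cell markers in 5 of 6 (2.84). Mast cell and basophil markers were higher in 4 of 6 (1.08), erythroid markers in 3 of 4 (1.06), stromal markers in 1 of 6 (0.80) and T and NK markers in 1 of 5 (0.28). Of all tested genes 17.9% were higher and 15.9% lower, and the stromal and T and NK counts lie near the share higher. Of 7 osteoclast lineage genes 3 were higher and 2 lower (median 0.011).

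**Figure D4:**
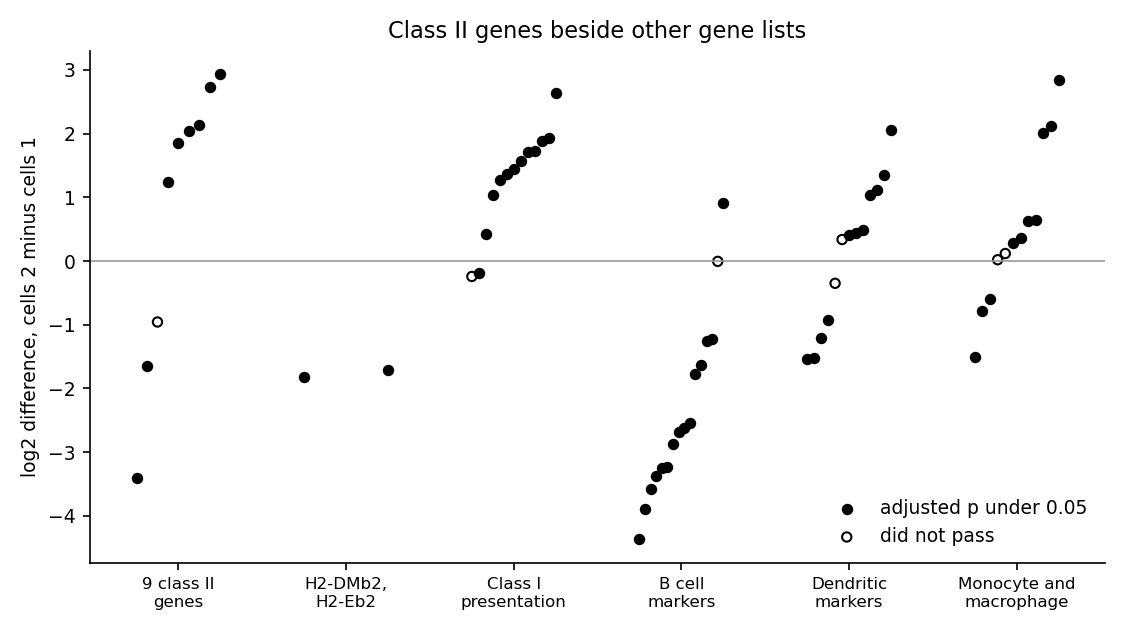
Log2 difference between preparation 2 and 1 for each tested gene of 6 lists; filled circles passed edgeR's test and open circles did not. Cd209a, at 0 counts in preparation 2, is left out. H2-Aa (2.94) and H2-Ab1 (2.73) lie above all class I genes, while the other class II genes lie below Tap1 (2.64) of the class I list. H2-Ob (-3.40) lies among the B cell markers.

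With DKK1, none of the 9 class II genes passed edgeR's test, and of all 17462 genes 0.0515% did (0.0401% higher and 0.0115% lower). DESeq2 and limma-voom also called 0 of the 9. At an unadjusted p under 0.05 edgeR had 1 of the 9, Cd74, against 4.47% of all genes. The estimates were below 0 for 8 of the 9 (median log2 -0.12), and for 50.4% of all genes (median -0.0015). Within preparation 1 the change was negative for 8 of 9 (median -0.21; all genes 50.9% negative, median -0.0042). Within preparation 2 it was negative for 6 of 9 (median -0.027; all genes 49.3% negative, median 0.00011). Among these 6, H2-Eb1 was at -0.0050, and the authors' deposited table has it at 0.00034. The same PBS library enters all 9 changes of a pair, so the signs of the genes are not independent.

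Cd74 was at 763 CPM with PBS and 606 CPM with DKK1 in preparation 1, and at 3099 and 2909 CPM in preparation 2. It was lower with DKK1 in both pairs, with log2 changes of -0.33 and -0.091. The estimate was -0.21 (95% interval -0.36 to -0.063; unadjusted p = 0.013, edgeR adjusted p = 0.96). H2-Aa had log2 changes of -0.22 and -0.027 in the pairs (estimate -0.12, 95% interval -0.27 to 0.031), H2-Ab1 -0.25 and -0.046 (-0.15, -0.30 to 0.0027) and H2-Eb1 -0.18 and -0.0050 (-0.089, -0.24 to 0.063). For each of these 4 genes the change was larger in preparation 1, where the level was lower.

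Ciita and H2-Ob had their larger change in preparation 2, where they were low. For Ciita, 1042 counts with PBS stood against 940 with DKK1 in preparation 1, and 267 against 189 in preparation 2. Its scaled ratio of DKK1 over PBS was 0.898 (95% counting interval 0.821 to 0.982) and 0.629 (0.52 to 0.761). The estimate was -0.31 (95% interval -0.73 to 0.11; edgeR adjusted p = 0.96). Summed with Dexi, which had 229 and 304 counts in preparation 1 and 117 and 157 in preparation 2 (PBS first), it was -0.14 (edgeR adjusted p = 0.97). For H2-Ob, 733 stood against 628 counts and 60 against 33, ratios of 0.853 (0.765 to 0.95) and 0.489 (0.31 to 0.76), with an estimate of -0.32 (-0.85 to 0.21; edgeR adjusted p = 0.96). These counting intervals compare single libraries and leave out the variation between cultures.

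H2-DMa and H2-DMb1 had opposite signs in the pairs: -0.15 and 0.069 for H2-DMa (estimate -0.034, 95% interval -0.28 to 0.21) and -0.21 and 0.062 for H2-DMb1 (-0.055, -0.30 to 0.19). Opposite signs were found for 48.3% of all tested genes. The sum of H2-DMa and Brd2, of which H2-DMa made up 10.8%, had an estimate of 0.0534. H2-Oa had positive changes, 0.15 and 0.20 (0.16, -0.52 to 0.84). Its 58 to 187 counts per library do not resolve a change of that size.

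The authors' deposited tables, which compare 1 library with 1 in each pair, called 0 of the 9 class II genes listed for preparation 1 and 0 of the 8 listed for preparation 2 (0.921% and 0.987% of all genes listed there). All genes called there had an FDR under 0.05 and a log2 ratio of at least 1 either way. At an FDR under 0.05 alone, the authors' deposited tables hold 3 of 9 in preparation 1 (19.0% of all genes): Cd74 (log2 ratio -0.33, FDR 1.0e-05), H2-Ab1 (-0.25, 0.0025) and H2-Aa (-0.22, 0.012). For preparation 2 the authors' deposited table holds 1 of 8 (16.7% of all genes), Ciita (-0.55, FDR 0.00021).

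Among the partner lists edgeR called 0 genes with DKK1. Median log2 changes were -0.038 for factors at class II promoters, -0.0018 for genes upstream of Ciita, 0.030 for antigen processing, -0.042 for costimulation, 0.022 for class I and -0.062 for H2-DMb2 and H2-Eb2. Marker genes of B cells had a median of -0.49 (0 of 16 passed). Their summed level was 424 CPM with PBS and 316 CPM with DKK1 in preparation 1, and 191 CPM with both in preparation 2. Blnk and Cd22 made up most of that level in preparation 2. The sum over the 9 class II genes went from 1250 to 1027 CPM in preparation 1 and from 5496 to 5260.2 CPM in preparation 2. Pax5 was at 34.05 CPM with PBS and 25.5 CPM with DKK1 in preparation 1, and at 1.76 and 2.16 CPM in preparation 2. The part of B cells in the class II values with DKK1 was not tested. For the other marker lists 0 genes passed and the medians were 0.074 (dendritic), -0.0063 (monocyte and macrophage), -0.019 (osteoclast lineage), -0.035 (neutrophil), -0.045 (plasma cell), -0.18 (T and NK), -0.42 (mast cell and basophil), -0.44 (erythroid) and 0.30 (stromal).

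**Figure D5:**
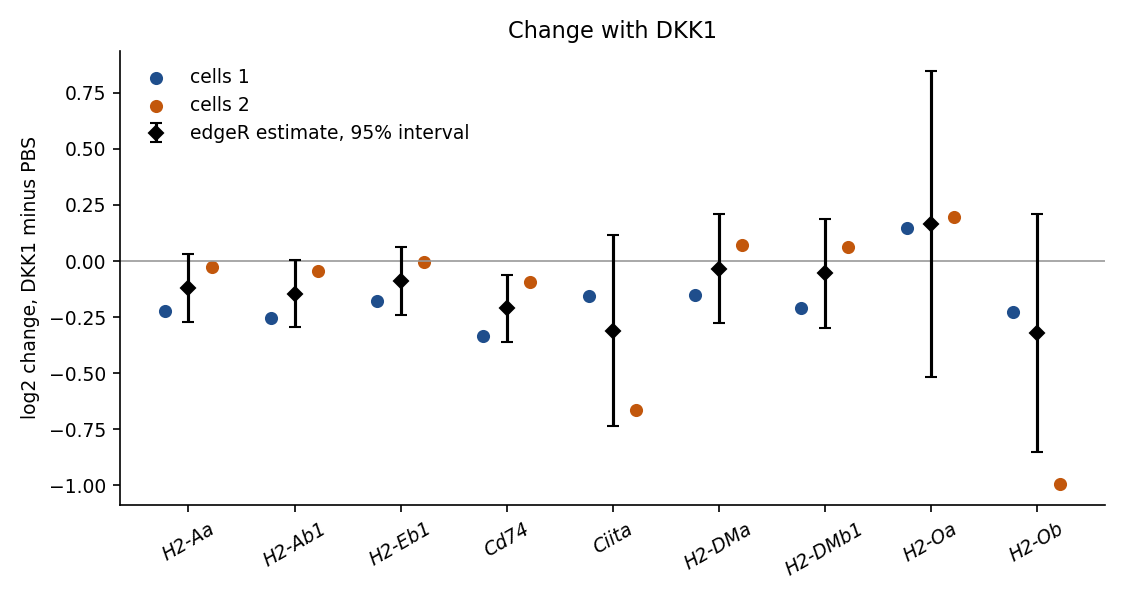
Log2 change with DKK1 for each class II gene within preparation 1 (blue) and 2 (orange), and the edgeR estimate with its 95% interval (diamonds). The interval spans 0 for every gene but Cd74, whose adjusted p was 0.96; the blue points of the chains and Cd74 lie below the orange.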

How the data were processed

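RNA of 4 libraries was measured. Whole-number counts per gene ID, as deposited by the authors, were not normalized. The submitters' processing notes name fastp, HISAT2 and the build mm10. Which program and annotation gave the counts is not given in the sources used here. For each pair the authors' deposited tables give a log2 ratio, a p-value and FDR (test not stated) and FPKM, as their headers say.

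Counts were tested with edgeR 4.0.16 in R 4.3.3 (quasi-likelihood, TMM, filterByExpr). The model had preparation and treatment as terms, with 1 residual degree of freedom. Two-sided p-values were adjusted by Benjamini-Hochberg over 17462 genes, with a threshold of 0.05. Same-numbered libraries were taken as cells of one mouse, though the titles number only the precursor cells, and the authors compared within these pairs. Their deviations from treatment means correlated at 0.726 across genes. Replicate p-values measure only the spread between these libraries. Differences within a pair are log2 CPM with a prior count of 2. RPKM used exon lengths of GENCODE M21 (GRCm38), which holds 53620 of the IDs. BLAST 2.17.0 was run for near-identical transcripts (95% identity over 100 bases and 50% of the shorter one). Counting intervals are exact at 95% (SciPy 1.17.1) and cover counting error only. The model was also run on simulated data drawn with the same dispersion for every gene. That run does not check the p-values given here, and its outcome is not reported here. Alternatives used DESeq2 1.42.0 and limma 3.58.1.

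The 9 genes and the lists were chosen with earlier results of these data known. Named are the 9 genes, up to 4 tested genes of each list with the most counts, list genes called with DKK1, and the 6 genes nearest in pattern. Other names are marked as chosen after their values were seen, or serve as a check of the cell type. Some genes that this rule names are not reported here.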

Additional observations from a re-analysis of the deposited data

Results flagged for a closer look

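H2-DMa and H2-DMb1, the 2 chains of H2-DM, had changes with DKK1 of opposite sign in the 2 preparations: log2 -0.152 in preparation 1 and 0.0693 in preparation 2 for H2-DMa, and -0.207 and 0.0619 for H2-DMb1. Each preparation has 1 pair of libraries, so the difference between the preparations was not tested. Opposite signs were found for 48.3% of all tested genes, and the pattern of lower in preparation 1 and higher in 2 for 24.8%.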

How the results depend on the processing

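With DKK1, 0 of the 9 class II genes were called under every alternative run: no replicate block (preparation left out of the model), DESeq2, upper-quartile scaling, all genes with a count kept, a minimum of 5 CPM in 2 libraries, limma-voom, summed models and, chosen after seeing the data, legacy quasi-likelihood. Over all genes the count of 9 went to 0 with no replicate block, 0 without a filter, 5 with upper-quartile scaling, 2 with limma-voom, 3 with legacy quasi-likelihood and 46 with DESeq2; the cause was not tested. With no replicate block, H2-DMa (0.00349) and H2-DMb1 (0.00922) turned positive. The sum of H2-DMa and Brd2 was at 0.0534, but H2-DMa made up only 10.8% of that sum. The replicate block changed no call of a class II gene with DKK1.

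Between the preparations, with the treatment term left out in place of the replicate block and the other settings as above, 8 or 9 of the 9 were called, and 8 with any 1 library left out. Over all genes 5905 calls went to 3507 without a filter. H2-Oa alone changed its call, and it falls below the 5 CPM minimum.

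With 1 library left out, DKK1 was fitted without the replicate block, which leaves the preparations unbalanced, and the preparations were fitted without the treatment term. Over all genes 0 were then called with DKK1 and 3917 to 4891 between preparations (3917 without DKK1 replicate 2, 3926 without PBS replicate 2). The log2 changes with DKK1 then ran from -2.24 to 1.98 (H2-Aa), -2.09 to 1.77 (H2-Ab1), -1.31 to 1.10 (H2-Eb1), -1.67 to 1.21 (Cd74), -1.54 to 0.599 (Ciita), -0.823 to 0.680 (H2-DMa), -1.45 to 1.26 (H2-DMb1), -0.378 to 0.743 (H2-Oa) and -3.26 to 1.93 (H2-Ob). Those of opposite sign to the estimate began at 0.784 (H2-Aa), 0.737 (H2-Ab1), 0.624 (H2-Eb1), 0.591 (Cd74), 0.388 (Ciita), 0.528 (H2-DMa), 0.720 (H2-DMb1), -0.241 (H2-Oa) and 0.606 (H2-Ob). All these values take in the difference between the preparations (2.94 for H2-Aa). Their signs therefore do not show how stable the changes with DKK1 are. Within the pairs, H2-Aa changed by -0.222 and -0.0274. With 1 pair left out, H2-DMa was at -0.152 or 0.0693 and H2-DMb1 at -0.207 or 0.0619. The mean level of H2-DMa was 10.8 RPKM and 20.5 by the authors' FPKM. H2-Oa and H2-Ob have the fewest counts, which limits what can be detected for them.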
